A study of Mus musculus with 12 samples.

Results

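The genes described here encode enzymes that act on the sterol ring or the side chain of bile acids and their precursors. These 7 genes are Akr1d1, Akr1c6, Amacr, Acox2, Hsd17b4, Scp2 and Slc27a5. They were found by matching the Ensembl identifiers of the count table to GENCODE vM1 names, and all 7 of 7 had a row among the 51609 rows and were among the 17652 genes tested. Liver RNA was sequenced from 4 groups of 3 mice, which were wild-type untreated, wild-type with DSS, RelaΔhepStat3Δhep untreated and RelaΔhepStat3Δhep with DSS. All mice were on a C57BL/6 background and aged 5 to 7 weeks, and the DSS groups drank 2% dextran sodium sulfate (DSS), which injures the colon epithelium, for 6 days. The wild-type mice were littermates that carry the floxed Rela and Stat3 alleles without Cre. In the mice labelled RelaΔhepStat3Δhep, Cre under the albumin promoter removes both transcription factors from hepatocytes, while the other cells of the liver keep them. The study used males and females, and which sex each library came from is not labelled.

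Bile acids are made from cholesterol in hepatocytes. After cytochrome P450 enzymes hydroxylate the sterol, Akr1d1, the 5-beta reductase, and a 3-alpha-hydroxysteroid dehydrogenase of the AKR1C family reduce the A ring and give the molecule its bent shape. The side chain is then activated to a coenzyme A ester and shortened in peroxisomes, where Amacr inverts the methyl branch, Acox2 oxidises the branched chain, Hsd17b4 (the D-bifunctional protein) hydrates and dehydrogenates it, and the thiolase form of Scp2 cleaves it. Slc27a5, the bile acid coenzyme A ligase, reactivates bile acids that return from the gut before they are conjugated again.

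In wild-type liver none of the 7 genes passed the test between DSS and untreated mice. In liver labelled RelaΔhepStat3Δhep, Scp2 and Slc27a5 fell after DSS and the other 5 genes did not pass the test. Both falls lay close to the threshold, and sex-linked transcripts changed together with DSS there, so DSS cannot be told apart from sex. No gene of the 7 passed between genotypes or in the interaction of genotype and DSS. Levels are CPM, the count of a gene relative to its library total scaled by TMM factors, and differences are log2 fold changes, with their standard errors (SE), from the edgeR quasi-likelihood test with Benjamini-Hochberg adjustment over all 17652 genes and a threshold of 0.05.

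The libraries held between 65879529 and 82850098 estimated counts. The labels number the 3 mice of each group and name no batch. Albumin and the other hepatocyte markers (7 of 9 listed genes with counts) summed to between 99879 and 185405 CPM. The gene-level count of Rela was 39.5 to 62.3 CPM over all 12 libraries and was not lower in those labelled RelaΔhepStat3Δhep. Stat3 was 43.0 to 74.8 CPM in these and 45.7 to 330 CPM in wild-type libraries, and counts over the whole gene cannot show the loss of floxed exons, so the genotype is taken from the labels. Xist, the transcript of the inactive X chromosome, was high (903 to 1283 CPM) in the third untreated wild-type library and in all 3 DSS libraries labelled RelaΔhepStat3Δhep, and was at most 29.0 CPM in the other 8. Y-linked transcripts summed to 175 to 241 CPM in these 8, to at most 0.120 CPM in the DSS libraries labelled RelaΔhepStat3Δhep and to 30.1 CPM in the third untreated wild-type library, which thus held both kinds of sex-linked transcript, and whether it mixes RNA of mice of both sexes was not tested. Sex-linked transcripts therefore changed together with DSS in the mice labelled RelaΔhepStat3Δhep and with genotype among the DSS-treated mice, and neither DSS in the former nor genotype in the latter can be told apart from sex. The acute-phase genes Hp and Saa2 reached 35610.4 and 23330 CPM in the second wild-type DSS library, against 1653 to 8323 and 10.1 to 698 CPM in the other 2 of that group.

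The RefSeq promoter table (GRCm38.p6, from 250 bases before to 50 after a start site) held 4 of the 7 genes, Akr1d1, Akr1c6, Scp2 and, with 2 starts, Acox2. Amacr, Hsd17b4 and Slc27a5 have no entry. The promoters of Scp2, which passed the test, and of Akr1d1, the ring reductase with the lowest adjusted p in wild-type liver, are shown 5′ to 3′ on the strand of the gene, with every match to AGGTCA or its reverse complement TGACCT, the half-site of many nuclear receptors, in capitals.
Scp2, chr4:108118498-108118797, minus strand: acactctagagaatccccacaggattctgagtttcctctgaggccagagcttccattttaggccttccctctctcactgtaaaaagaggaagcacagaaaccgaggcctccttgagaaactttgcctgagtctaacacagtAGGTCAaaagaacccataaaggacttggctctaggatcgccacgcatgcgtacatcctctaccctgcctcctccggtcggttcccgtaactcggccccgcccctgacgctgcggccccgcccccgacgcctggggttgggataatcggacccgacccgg
Akr1d1, chr6:37529923-37530222, plus strand: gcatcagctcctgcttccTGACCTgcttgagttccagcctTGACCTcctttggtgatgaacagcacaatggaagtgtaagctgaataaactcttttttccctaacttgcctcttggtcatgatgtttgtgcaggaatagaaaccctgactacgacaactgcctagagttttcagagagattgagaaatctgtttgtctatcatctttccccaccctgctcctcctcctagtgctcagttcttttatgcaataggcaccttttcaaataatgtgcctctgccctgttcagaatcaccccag
The Scp2 promoter held 1 half-site, starting 109 bases before the start site, and the Akr1d1 promoter held 2, starting 232 and 210 bases before it. A half-site occurred in 16.3% of the 32851 promoters of the table. The other motifs searched on both strands were TTCNNNGAA for STAT factors (8.3% of promoters), GGNNTTTCC for NF-kB (5.82%) and the E-box CACGTG (7.15%). None of these was in the windows of Scp2, Akr1d1 and Akr1c6, and the overlapping windows of Acox2 shared 1 NF-kB match. The Scp2 promoter held 17 CG dinucleotides against 1 in the Akr1d1 promoter and a median of 7 over the table. A match describes the letters only and is not a binding site.

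Scaled to exon length, the genes of untreated wild-type liver fell into a more and a less abundant set. In untreated wild-type liver Scp2 had 619 CPM per kilobase of exon (419 to 842 over the 3 libraries), Akr1c6 563 (499 to 638) and Slc27a5 371 (323 to 412). Scp2 and Akr1c6 overlapped there, and Slc27a5 lay below Akr1c6 in every library. Hsd17b4 followed at 92.1 CPM per kilobase (88.4 to 96.7), Akr1d1 at 79.8 (62.5 to 94.0), Acox2 at 56.6 (41.8 to 72.9) and Amacr at 49.7 (44.9 to 54.1), and each overlapped the next in this order. Scp2 ranked first in 3 of the 4 groups. In the DSS group labelled RelaΔhepStat3Δhep it was second at 333 CPM per kilobase (281 to 396) behind Akr1c6 at 387 (295 to 541), and these overlapped. In the wild-type DSS libraries the more and the less abundant set overlapped, as Akr1c6 ran from 95.7 to 522 and Hsd17b4 from 66.7 to 109 CPM per kilobase. Amacr ranked last in all 4 groups.

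**Figure D1:**
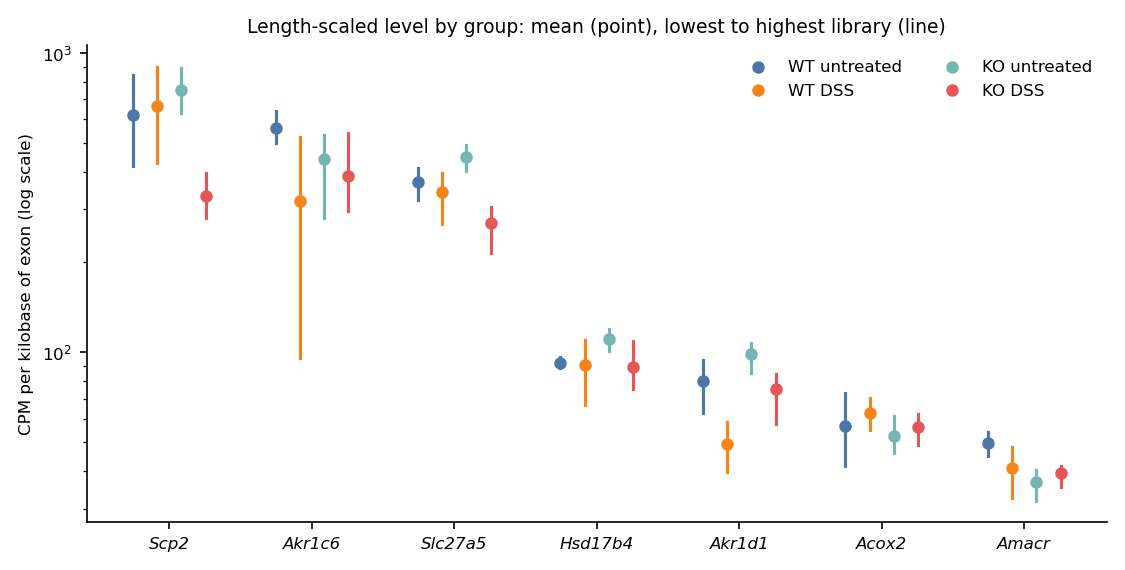
Level of each gene in CPM per kilobase of exon on a log axis, with the mean of 3 libraries as a point and the lowest to highest library as a line. WT is wild type and KO the mice labelled RelaΔhepStat3Δhep, and Scp2 drops from 754 to 333 CPM per kilobase between untreated and DSS in the latter.

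Akr1d1 (ENSMUSG00000038641) lies on chromosome 6 at 37480173 to 37518815 of mm9, plus strand. It encodes the only 5-beta reductase of the list. Its level was 242, 182 and 274 CPM in the untreated wild-type libraries and 171, 116 and 146 CPM in the wild-type DSS libraries. In the untreated libraries labelled RelaΔhepStat3Δhep it was 298, 314 and 249 CPM, and in the corresponding DSS libraries 244, 168 and 247 CPM. Every DSS library was below every untreated library of its genotype. The wild-type mean went from 233 ± 46.6 to 144 ± 27.2 CPM (SD, n = 3), a log2 fold change of -0.69 (SE 0.21, 95% interval -1.14 to -0.24), which missed the threshold in edgeR (adjusted p = 0.143) and passed in the DESeq2 Wald test (adjusted p = 0.0299). In the mice labelled RelaΔhepStat3Δhep the log2 fold change was -0.39 (SE 0.21, edgeR adjusted p = 0.281). Between genotypes after DSS the log2 difference was 0.61 (SE 0.21, edgeR adjusted p = 0.225), with libraries that overlapped.

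Akr1c6 (ENSMUSG00000021210) lies on chromosome 13 at 4433552 to 4456776 of mm9, plus strand, within the AKR1C cluster. Its close paralogs there could share reads, so its counts are uncertain to that extent. Untreated wild-type libraries had 1179.9, 922 and 1019.8 CPM, and wild-type DSS libraries had 627, 177 and 966 CPM. The libraries labelled RelaΔhepStat3Δhep had 983, 941 and 521 CPM untreated and 1000.1, 599 and 546 CPM with DSS. The wild-type DSS group spread most, with a coefficient of variation of 67.1%, and its lowest library was the second one, which had the highest Hp. The wild-type log2 fold change was -0.82 with a SE of 0.48 (edgeR adjusted p = 0.473), and that of the mice labelled RelaΔhepStat3Δhep was -0.19 (SE 0.48, edgeR adjusted p = 0.851). The 95% interval in wild type ran from -1.87 to 0.23. The genotype difference was -0.35 untreated (SE 0.48) and 0.28 with DSS (SE 0.48), and the groups overlapped in both.

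**Figure D2:**
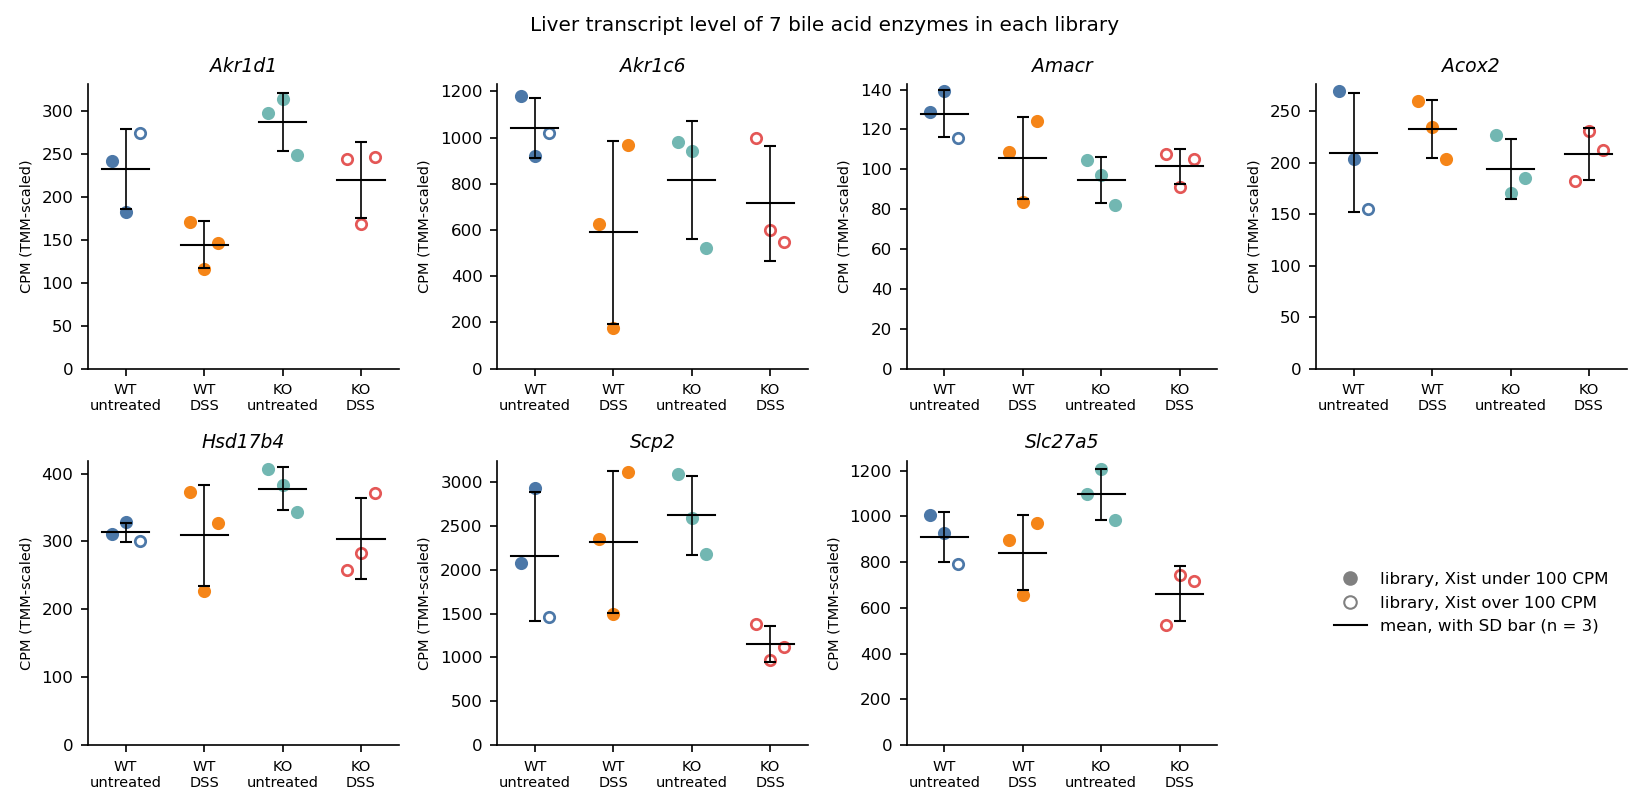
CPM of each gene in all 12 libraries, with the group mean as a horizontal line and the SD (n = 3) as a bar. KO marks the mice labelled RelaΔhepStat3Δhep and open circles the 4 libraries with high Xist, and the 3 KO DSS libraries have the lowest Scp2 levels of all (976 to 1379 CPM).

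Amacr (ENSMUSG00000022244, chromosome 15 at 10911511 to 10926379 of mm9, plus strand) encodes the racemase that lets the branched side chain enter beta-oxidation. Wild-type levels were 129, 139 and 116 CPM untreated and 109, 83.7 and 124 CPM with DSS. Levels in the mice labelled RelaΔhepStat3Δhep were 104, 97.0 and 82.1 CPM untreated and 107, 91.3 and 105 CPM with DSS. All untreated libraries with this label were below all untreated wild-type libraries. That log2 difference was -0.44 (SE 0.16, 95% interval -0.78 to -0.09) with an unadjusted p of 0.0175 and an edgeR adjusted p of 0.334. The log2 fold changes with DSS were -0.28 in wild type (SE 0.16, edgeR adjusted p = 0.462) and 0.10 in the mice labelled RelaΔhepStat3Δhep (SE 0.16, edgeR adjusted p = 0.748).

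Acox2 (ENSMUSG00000021751, chromosome 14 at 9058025 to 9091867 of mm9, minus strand) encodes the branched-chain acyl-CoA oxidase that takes the side chain into the peroxisomal spiral. It had 270.0, 204 and 155 CPM in untreated and 259.7, 235 and 203 CPM in DSS-treated wild-type liver. In liver labelled RelaΔhepStat3Δhep it had 227, 171 and 185 CPM untreated and 182, 231 and 213 CPM with DSS. All 4 groups overlapped. The log2 fold changes with DSS were 0.15 in wild type (95% interval -0.28 to 0.59) and 0.10 in the mice labelled RelaΔhepStat3Δhep (95% interval -0.33 to 0.54). The edgeR adjusted p-values of Acox2 ran from 0.776 to 0.957 over the 5 comparisons.

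Hsd17b4 (ENSMUSG00000024507, chromosome 18, plus strand) encodes the next enzyme of the spiral. Levels were 310.3, 329 and 301 CPM in untreated wild-type liver, with a coefficient of variation of 4.57%, and 373, 227 and 327 CPM with DSS. In the mice labelled RelaΔhepStat3Δhep they were 406, 383 and 343 CPM untreated and 257, 283 and 371 CPM with DSS. Untreated libraries with this label were all above the untreated wild-type ones, by 0.27 on the log2 scale (SE 0.20, edgeR adjusted p = 0.636). The log2 fold changes with DSS were -0.02 in wild type (SE 0.20) and -0.31 in the mice labelled RelaΔhepStat3Δhep (SE 0.20, edgeR adjusted p = 0.356).

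Scp2 (ENSMUSG00000028603) lies on chromosome 4 at 107716444 to 107817603 of mm9, minus strand, and has 9 annotated transcripts. These include the peroxisomal thiolase and the shorter sterol carrier protein, which a count over the whole gene does not separate. Wild-type levels were 2075, 2929 and 1457 CPM untreated and 2347, 1491 and 3119 CPM with DSS, and these overlapped widely. In the mice labelled RelaΔhepStat3Δhep the levels were 3088, 2594 and 2186 CPM untreated and 1379, 976 and 1117 CPM with DSS, and these did not overlap. There the mean fell from 2623 ± 452 to 1157 ± 204 CPM (SD, n = 3), a log2 fold change of -1.18 (SE 0.31, 95% interval -1.84 to -0.52, edgeR adjusted p = 0.0372). The wild-type log2 fold change was 0.11 (SE 0.30, 95% interval -0.55 to 0.76, edgeR adjusted p = 0.917). The difference between these DSS responses was -1.29 on the log2 scale (SE 0.43), which missed the threshold in edgeR (adjusted p = 0.184) and passed in DESeq2 (adjusted p = 0.0353). After DSS the libraries labelled RelaΔhepStat3Δhep were all below the wild-type ones, with a log2 difference of -1.002 (SE 0.30, edgeR adjusted p = 0.182, DESeq2 adjusted p = 0.0202), in a comparison in which Xist separates the groups too.

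Scp2 was the single gene of the 7 whose levels separated by Xist. The 4 libraries with high Xist had 976 to 1457 CPM of Scp2 and the 8 others 1491 to 3119 CPM, so the third untreated wild-type library was the lowest of its group. With high Xist as a covariate in edgeR, which rests on that 1 library against its group, the log2 fold change of Scp2 in the mice labelled RelaΔhepStat3Δhep was -0.40 (adjusted p = 0.823) and that of Slc27a5 -0.44 (adjusted p = 0.702). Of the male-biased liver genes, 6 of 10 listed had counts, among them Cyp7b1 and Hsd3b5. These 6 summed to 752 to 1864 CPM in the untreated and 247 to 448 CPM in the DSS libraries labelled RelaΔhepStat3Δhep. The female-biased genes (6 of 13 with counts) summed to 263 to 866 CPM in the former and 1297 to 2543 CPM in the latter. The part of sex in the fall of Scp2 was not tested beyond this.

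**Figure D3:**
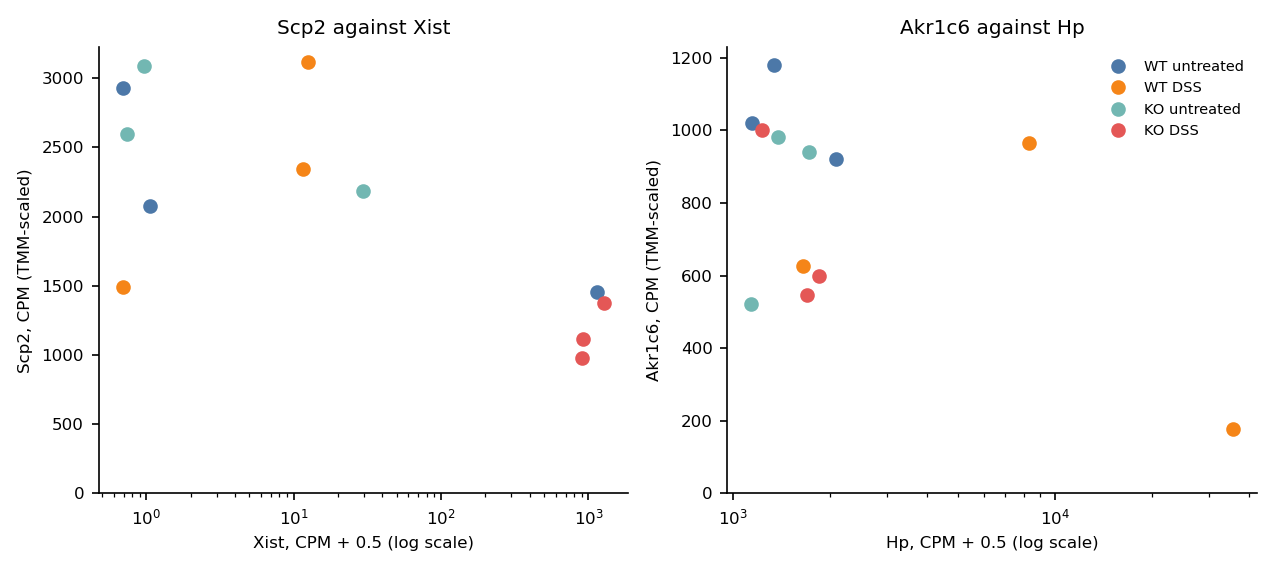
Left, Scp2 (CPM) against Xist (CPM plus 0.5, log axis), and right, Akr1c6 (CPM) against Hp (CPM plus 0.5, log axis), 1 point for each of the 12 libraries, with KO for the mice labelled RelaΔhepStat3Δhep. The 4 libraries with high Xist lie at 976 to 1457 CPM of Scp2, and the library with 35610.4 CPM of Hp has the lowest Akr1c6 (177 CPM).

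A processed copy, Scp2-ps2 (a pseudogene on chromosome 9 at 123216626 to 123217057 of mm9), may share reads with Scp2. Its estimated counts were 10.99% to 17.3% of those of Scp2 in each library, and its log2 fold change in the mice labelled RelaΔhepStat3Δhep was -0.69 (SE 0.23, edgeR adjusted p = 0.084). With the counts of both summed, Scp2 had a log2 fold change of -1.12 and an edgeR adjusted p of 0.0423.

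Slc27a5 (ENSMUSG00000030382, chromosome 7 at 13573695 to 13583541 of mm9, minus strand) had 1007, 926 and 790.3 CPM in untreated and 895, 658 and 969.6 CPM in DSS-treated wild-type liver. In liver labelled RelaΔhepStat3Δhep it had 1099, 1207 and 985 CPM untreated and 525, 746 and 716 CPM with DSS. Under this label the DSS libraries were all below the untreated ones, and in wild type the groups overlapped. The mean fell from 1097 ± 111 to 662 ± 119.6 CPM (SD, n = 3), a log2 fold change of -0.73 (SE 0.20, 95% interval -1.17 to -0.29, edgeR adjusted p = 0.0487). In wild type it was -0.11 (SE 0.20, edgeR adjusted p = 0.859). The interaction was -0.62 (SE 0.29, edgeR adjusted p = 0.307), so the responses of the genotypes were not shown to differ. The libraries with high Xist had 525 to 790.3 CPM and the others 658 to 1207 CPM, which overlapped.

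Both falls sat close to the threshold. In edgeR, leaving out each of the 12 libraries in turn gave Scp2 a log2 fold change of -1.34 to -1.04 and an adjusted p of 0.0129 to 0.109, and Slc27a5 -0.82 to -0.60 with an adjusted p of 0.0170 to 0.171. Scp2 missed the threshold in 7 of these 12 fits, which were those without any 1 of the 6 libraries labelled RelaΔhepStat3Δhep or without the first untreated wild-type library, and Slc27a5 missed it in all but the fit without the second wild-type DSS library. With 3 libraries against 3, an exact permutation test cannot give a two-sided p below 0.1, which both genes reached.

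Set against all genes tested, 2 of the 7 genes passed in the DSS comparison of the mice labelled RelaΔhepStat3Δhep, where 7.02% of all genes passed and 2.46% passed as lower. None of the 7 passed for DSS in wild type (0.685% of all genes), for genotype in untreated mice (0.0623%), for genotype with DSS (0.334%) or for the interaction (0.408%). At an unadjusted p under 0.05 in edgeR these 4 comparisons had 1, 1, 2 and 2 of the 7 genes, against 14.5%, 11.7%, 14.3% and 16.3% of all genes. The DESeq2 Wald test called 1, 0, 1 and 1 of the 7 in them (5.95%, 2.31%, 3.4% and 4.5% of the genes with an adjusted p) and 2 in the DSS comparison of the mice labelled RelaΔhepStat3Δhep (14.4%). Groups did not overlap for 1 of the 7 genes with DSS in wild type (18.7% of all genes), for 3 in the mice labelled RelaΔhepStat3Δhep (31.8%), for 2 between untreated genotypes (20.2%) and for 1 between genotypes with DSS (16.8%). The median log2 fold change of the 7 genes with DSS was -0.11 in wild type and -0.31 in the mice labelled RelaΔhepStat3Δhep, where the medians of all genes were 0.02 and -0.01.

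**Figure D4:**
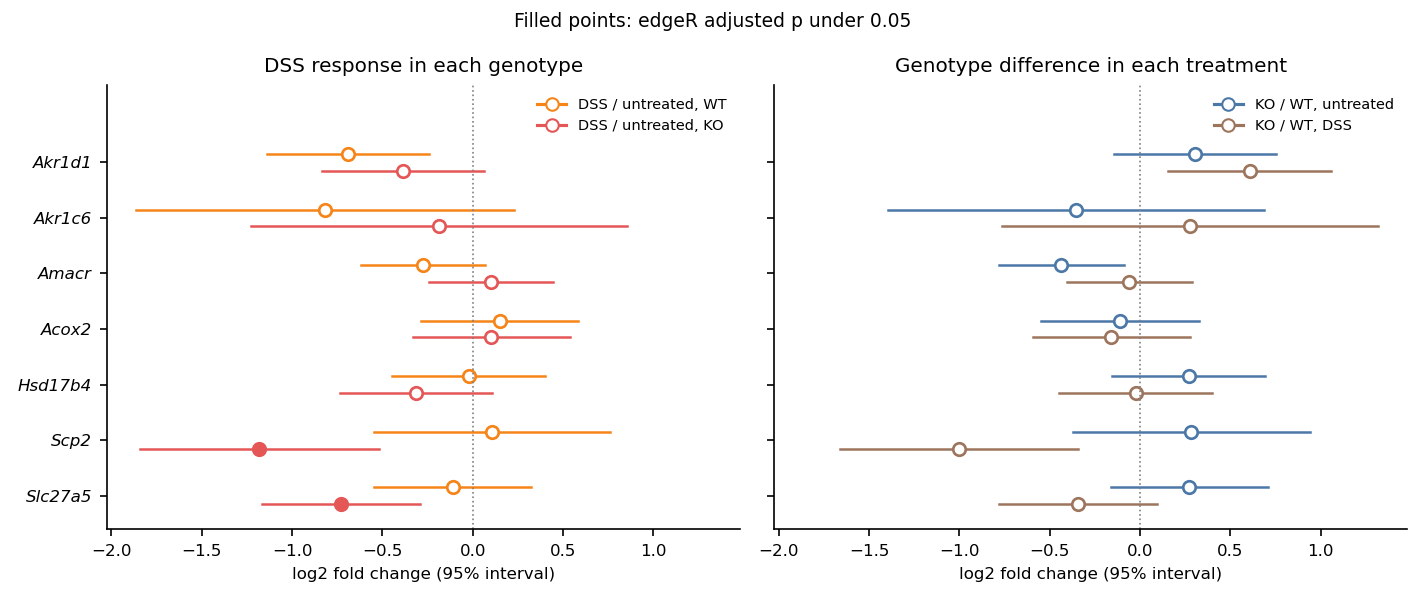
Log2 fold changes with 95% intervals for DSS against untreated mice (left) and for the mice labelled RelaΔhepStat3Δhep (KO) against wild type (right). Filled points passed an edgeR adjusted p of 0.05, which only Scp2 (-1.18) and Slc27a5 (-0.73) did, both in KO with DSS.

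The other enzymes of bile acid synthesis and conjugation were taken from a list of 16 genes, of which 13 were tested. In the mice labelled RelaΔhepStat3Δhep, where 7.02% of all genes passed after DSS, 1 of the 13 did. This was Acaa1a, a peroxisomal 3-ketoacyl-CoA thiolase that acts on the same type of bond as the thiolase form of Scp2. Its level was 146, 151 and 134 CPM untreated and 67.6, 72.2 and 66.8 CPM with DSS, a log2 fold change of -1.06 (SE 0.12, edgeR adjusted p = 0.000802). In wild type Acaa1a had 112, 126 and 111 CPM untreated and 95.5, 103 and 116 CPM with DSS, which overlapped. The interaction of Acaa1a was -0.90 (SE 0.17, edgeR adjusted p = 0.0431), the one gene of the 13 that passed in edgeR (0.408% of all genes did), while DESeq2 also called Cyp7b1 (adjusted p = 0.00177). That interaction missed the threshold in edgeR without the filter on low counts (adjusted p = 0.0646), with the replicate number as a block (0.0532), with high Xist as a covariate (0.604), and in 11 of the 12 fits that left out 1 library, which gave -0.96 to -0.82 and adjusted p-values of 0.0303 to 0.137. The fall itself passed in all 12 of these fits (-1.11 to -1.02) and missed the threshold with the Xist covariate (-0.96, adjusted p = 0.201).

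The side-chain acyl-CoA synthetase Slc27a2, which can activate bile acid precursors, had a log2 fold change of -0.71 (SE 0.28, edgeR adjusted p = 0.138, DESeq2 0.0459) in the mice labelled RelaΔhepStat3Δhep and -0.14 (SE 0.28) in wild type. Cyp27a1, the mitochondrial enzyme that begins side-chain oxidation, had -0.97 (SE 0.32, edgeR adjusted p = 0.0835, DESeq2 0.0156) and -0.15 (SE 0.31). Cyp7b1, the oxysterol hydroxylase, is also on the list of male-biased liver genes. It had -1.71 (SE 0.48, edgeR adjusted p = 0.0553, DESeq2 0.000675) and 0.78 (SE 0.47), and with high Xist as a covariate the former was -0.71 (SE 0.78, edgeR adjusted p = 0.792). Acaa1b, a paralog of Acaa1a with which it could share reads, had -2.25 (SE 0.67, edgeR adjusted p = 0.0728, DESeq2 0.0119) and -1.65 (SE 0.66, edgeR adjusted p = 0.287), with no overlap between DSS and untreated libraries in either genotype. Ehhadh, a peroxisomal bifunctional enzyme, had -0.92 (SE 0.43, edgeR adjusted p = 0.213) and -0.91 (SE 0.43, edgeR adjusted p = 0.352). Other P450 enzymes of the pathway had other patterns. Cyp7a1, which catalyses the rate-limiting step, had -2.82 (SE 1.19, edgeR adjusted p = 0.189) and -2.31 (SE 1.17) in wild type, Cyp8b1, the 12-alpha-hydroxylase, had 0.0189 (SE 0.76) and 0.59 (SE 0.77), and Cyp39a1 had 0.48 (SE 0.36) and -0.42 (SE 0.36). The median log2 fold change of the 13 genes was -0.92 with DSS in the mice labelled RelaΔhepStat3Δhep and -0.15 in wild type, and 9 and 10 of the 13 were lower by fold. In edgeR none of the 13 passed for DSS in wild type (0.685% of all genes) or between genotypes (0.0623% untreated and 0.334% with DSS). After DSS the DESeq2 test called Acaa1a lower in the mice labelled RelaΔhepStat3Δhep than in wild type (log2 difference -0.60, adjusted p = 4.57e-05). DESeq2 called Cyp39a1, an oxysterol hydroxylase, higher there (1.21, adjusted p = 0.0234).

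**Figure D5:**
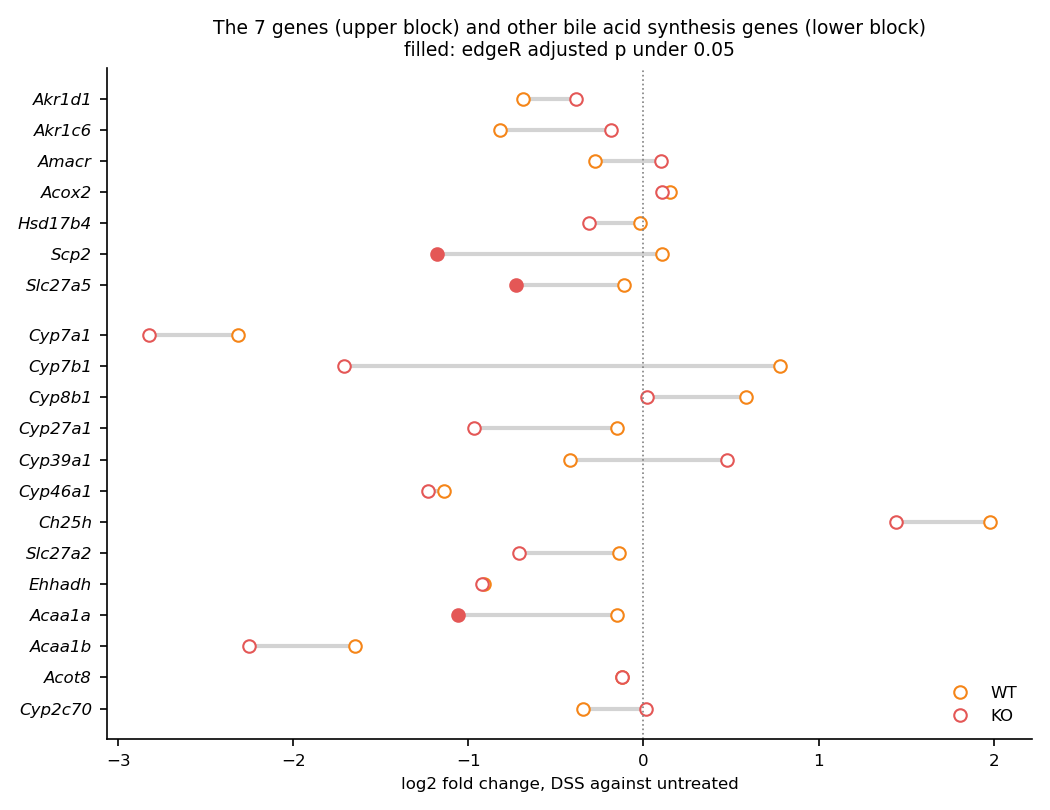
Log2 fold change with DSS in wild type (WT) and in the mice labelled RelaΔhepStat3Δhep (KO) for the 7 genes and for 13 other genes of bile acid synthesis, with filled points for an edgeR adjusted p under 0.05. Acaa1a (-1.06), Scp2 (-1.18) and Slc27a5 (-0.73) passed in KO, and none passed in WT.

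In the AKR1C cluster 5 of 8 listed genes were tested besides Akr1c6, and 2 rose with DSS in the mice labelled RelaΔhepStat3Δhep while Akr1c6 did not pass. In that comparison 806 of all 17652 genes passed as higher. Akr1c20 went from 88.9, 87.2 and 58.4 to 201, 143 and 134 CPM (log2 fold change 1.03, SE 0.27, edgeR adjusted p = 0.0377). Akr1c18, a 20-alpha-hydroxysteroid dehydrogenase, rose from a low level of 0.240 ± 0.258 to 5.41 ± 4.51 CPM (SD, n = 3, edgeR adjusted p = 0.030). The other 3 had log2 fold changes below 0 with DSS under that label, with Akr1c12 at -0.44 (SE 0.14, edgeR adjusted p = 0.0828, DESeq2 0.0276). In wild type all 5 had log2 fold changes below 0 with DSS. Akr1c20 went there from 107, 72.4 and 147 to 74.6, 47.6 and 56.1 CPM (-0.87, SE 0.27, edgeR adjusted p = 0.150, DESeq2 0.0351), and Akr1c18 from 1.83 ± 0.692 to 0.272 ± 0.211 CPM (SD, n = 3, edgeR adjusted p = 0.232). Akr1c20 was also higher in the mice labelled RelaΔhepStat3Δhep than in wild type after DSS (log2 difference 1.42, SE 0.27, edgeR adjusted p = 0.0491), where Xist differs in the same way, and with high Xist as a covariate this difference was 0.72 (edgeR adjusted p = 0.837). Shared reads between the paralogs limit these values as they do for Akr1c6.

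Among 13 tested of 16 peroxins, which build peroxisomes, Pex11a (log2 fold change -0.79, edgeR adjusted p = 0.0145) and Pex26 (-1.34, edgeR adjusted p = 0.00196) fell with DSS in the mice labelled RelaΔhepStat3Δhep and none rose. In that comparison 2.46% of all genes passed as lower. None of the 13 passed with DSS in wild type, where 0.685% of all genes did.

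Of 12 listed regulators of bile acid and peroxisomal genes, 11 were tested. Of these, 4 nuclear receptors fell with DSS in the mice labelled RelaΔhepStat3Δhep, where 2.46% of all genes passed as lower. Nr1h4, the bile acid receptor, had a log2 fold change of -0.71 (edgeR adjusted p = 0.040), and Hnf4a, which drives many hepatocyte genes, had -0.70 (edgeR adjusted p = 0.0325). Ppara, the fatty acid sensor that controls peroxisomal oxidation, had -0.93 (edgeR adjusted p = 0.0145), and Nr1i3, a xenobiotic receptor, had -0.99 (edgeR adjusted p = 0.0116). None of the 11 passed with DSS in wild type, where 0.685% of all genes did. With high Xist as a covariate none of these 4 receptors passed with DSS under that label, nor did Pex11a, Pex26, Akr1c18 or Akr1c20. Their edgeR adjusted p-values were 0.263 to 0.837. This covariate rests on the third untreated wild-type library against its group, and the SE of each gene was larger. The receptors then had log2 fold changes of -0.95 (Nr1h4, SE 0.33), -0.49 (Hnf4a, SE 0.32), -1.23 (Ppara, SE 0.33) and -1.19 (Nr1i3, SE 0.34). Pex11a had -0.60 (SE 0.29), Pex26 -0.97 (SE 0.31), Akr1c18 3.61 (SE 1.82) and Akr1c20 0.32 (SE 0.43). The part of sex in these changes was not tested. In the same comparison 6 of 12 clock genes tested passed as lower (2.46% of all genes did) and 9 of the 12 were lower by fold. Dbp, a clock output factor, was 2.05 to 8.98 CPM untreated and 0.185 to 0.367 CPM with DSS there. In wild type 9 of the 12 were also lower by fold with DSS, and none passed (0.685% of all genes did). Between genotypes Nr1d1 passed as lower under that label in untreated mice (0.0623% of all genes passed), at 4.98 to 8.61 CPM against 71.5 to 108 CPM in wild type. With DSS, Nr1d1 and Nr1d2 passed as lower under that label (0.334% of all genes passed). Nr1d1 was then 3.15 to 4.18 CPM under that label and 43.3 to 91.3 CPM in wild type. Markers of Kupffer cells and macrophages (7 of 9 with counts) summed to 286 to 317 CPM in the untreated and 579 to 936 CPM in the DSS libraries labelled RelaΔhepStat3Δhep, and to 238 to 498 and 384 to 849 CPM in wild type. Under that label the sums were also higher with DSS, without overlap, for markers of neutrophils (6 of 6 with counts, 1.71 to 2.49 CPM untreated, with Ly6g and Retnlg at 0, and 10.7 to 28.4 CPM with DSS), stellate cells (6 of 7, 347 to 397 and 412 to 509 CPM) and lymphocytes (7 of 7, 3.39 to 3.59 and 4.70 to 11.2 CPM). The sums overlapped for sinusoidal endothelial cells (6 of 6, 315 to 346 and 327 to 462 CPM), cholangiocytes (5 of 6, 9.66 to 14.5 and 10.7 to 16.4 CPM) and erythroid cells (5 of 5, 34.6 to 121 and 10.7 to 37.0 CPM). The hepatocyte marker sum was 141539 to 156896 CPM untreated and 144334 to 185405 CPM with DSS under that label. In wild type the lymphocyte sum was 5.34 to 8.25 CPM untreated and 2.50 to 3.39 CPM with DSS, without overlap. The wild-type cholangiocyte sum was 6.06 to 9.06 CPM untreated and 12.2 to 21.0 CPM with DSS, also without overlap. The sums of the other cell types overlapped in wild type. The part of clock phase and of other cells in the falls of Scp2 and Slc27a5 was not tested, and in whole liver fewer cells of a type and less RNA per cell cannot be told apart.

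Across the 12 libraries the 7 genes did not all vary together. Scp2 and Slc27a5 had a Pearson r of 0.76 on log2 CPM and Hsd17b4 and Slc27a5 one of 0.74, while Akr1d1 and Acox2 had -0.45. These are descriptions over libraries that share group and sex-linked pattern. Among 11006 genes with a mean of at least 1 CPM, Scp2 was most like its copy Scp2-ps2 (r = 0.97) and then RP24-345H5.2 and Hsd3b5 (both 0.93), the latter a steroid dehydrogenase. Hsd3b5 is also on the list of male-biased liver genes. Slc27a5 was most like Faah (0.97), an amidase of fatty acid amides, then Usp10 (0.96), a deubiquitinase, and Fahd2a (0.95). Akr1d1 was most like Fbxo3 (0.93), Acot13 and Adal (both 0.91). Akr1c6 was most like Lipc, the hepatic lipase, Car1, a carbonic anhydrase, and Ugt2b36, a glucuronosyltransferase (all 0.93). Amacr was most like Col3a1, a collagen (0.90), Gjb1, a gap junction protein (0.89), and Carhsp1 (0.89). Acox2 was most like Ufd1l (0.88), Ube2d1 (0.84) and Atxn10 (0.83), and Hsd17b4 was most like Grsf1 (0.95), Atp5a1, an ATP synthase subunit (0.94), and Sos1 (0.93).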

How the data were processed

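RNA from 12 mouse livers was rRNA-depleted and sequenced as paired-end reads. The submitters' processing notes name fastp, HISAT2, StringTie, DESeq2 and the mm9 build. The authors deposited estimated counts per gene as whole numbers, not normalized, so they were used without rounding. No value column lay outside the samples (0 left out). Names, positions and exon lengths came from GENCODE vM1 on the same build, which names 28677 of the 51609 rows, and 23458 rows were 0 in every library.

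Groups came from the labels. In R 4.3.3, edgeR 4.0.16 (filterByExpr, TMM factors 0.758 to 1.13, robust quasi-likelihood F test) fitted 1 model with 4 groups over all libraries, giving 4 two-group comparisons and the interaction (the response to DSS under the label RelaΔhepStat3Δhep minus the wild-type response). Adjusted p-values (Benjamini-Hochberg) under 0.05 over 17652 genes passed. A pseudocount of 0.5 was added to CPM before log2, and exact permutation tests of 3 against 3 have 10 splits. A library with Xist over 100 CPM counted as high in Xist. Alternatives were DESeq2 1.42.0 (Wald test and size factors), no filter, the replicate number as a block, a covariate for high Xist, only the groups compared and leaving out each library. Leaving out 2 libraries together and summing Scp2 with Scp2-ps2 were added after seeing the data. Pairs of libraries within a group differed beyond sampling noise.

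The text names all 7 genes, every other bile acid synthesis gene that passed a comparison in edgeR and, for each of the 7, the 3 genes with the highest Pearson r on log2 CPM over the libraries. Slc27a2, Acaa1b, Ehhadh, the P450 enzymes, Akr1c12, Pex5, Pex13, Nr1d1 and Nr1d2 were chosen for naming after their values were seen. The same holds for the passing genes of the other lists (AKR1C cluster, peroxins, regulators). The 7 genes and the lists were chosen with earlier results of these data known. One further gene list is not reported here.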

Additional observations from a re-analysis of the deposited data

Results flagged for a closer look

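Among the 7 genes, the 13 other synthesis genes, the AKR1C cluster, the peroxins and the regulators, 12 genes met a rule for opposite directions. By this rule, all libraries of a group lay above the compared group's mean of log2 CPM in 1 comparison and below it in its counterpart. The counterparts were DSS in either genotype, or genotype without and with DSS. The rule is not a test, and the share of all genes tested that meet it was not counted. So the number of genes meeting it says nothing particular about these lists. Other genes changed sign by fold without meeting it. In Scp2 and Slc27a5 the log2 interaction was -1.29 and -0.62, because every untreated library labelled RelaΔhepStat3Δhep lay above the untreated wild-type mean and every DSS library with this label lay below the wild-type DSS mean. In Akr1c6 it was 0.63, with the opposite arrangement, and leaving out single libraries gave 0.19 (without the second wild-type DSS library) to 1.19 (without the third). Without the second wild-type DSS library the genotype difference of Akr1c6 with DSS was -0.15 in place of 0.28. None of these 3 passed as an interaction in edgeR (adjusted p = 0.184, 0.307 and 0.673). Cyp7b1 had an interaction of -2.49 (standard error 0.66, edgeR adjusted p = 0.126), with 110.2, 129 and 311 CPM in DSS-treated and 102, 154 and 63.9 CPM in untreated wild-type liver against 62.0, 58.3 and 123 CPM with DSS and 317, 303 and 176 CPM untreated under the label RelaΔhepStat3Δhep. Acaa1a passed the interaction test, at -0.90 (standard error 0.17, edgeR adjusted p = 0.0431). In edgeR the others did not pass as interactions. Akr1c18 had 7.22 (adjusted p = 0.0648) and Akr1c20 1.90 (adjusted p = 0.0528), both with DSS fold changes below 1 in wild type and above 1 under the label RelaΔhepStat3Δhep. Pex26 had -1.02 (adjusted p = 0.103), Pex11a -0.72 (adjusted p = 0.169), Pex13 0.44 (adjusted p = 0.2305), Hnf4a -0.63 (adjusted p = 0.240) and Pex5 -0.30 (adjusted p = 0.542). In DESeq2 the interactions of Scp2, Cyp7b1, Acaa1a, Akr1c18, Akr1c20 and Pex26 passed (adjusted p = 5.26e-06 to 0.0353). All DSS libraries labelled RelaΔhepStat3Δhep were high in Xist, and with high Xist as a covariate in edgeR none of these 6 interactions passed (adjusted p = 0.604 to 0.947). They were then -0.29 for Scp2, -1.22 for Cyp7b1, -0.78 for Acaa1a, 5.99 for Akr1c18, 0.92 for Akr1c20 and -0.54 for Pex26.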

How the results depend on the processing

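The falls of Scp2 and Slc27a5 in the mice labelled RelaΔhepStat3Δhep kept their direction under every alternative run. They passed the threshold with DESeq2 (adjusted p = 0.000751 and 0.00145), DESeq2 size factors in edgeR, no filter, only the groups compared, 2 libraries left out and Scp2-ps2 summed. Replicate numbers did not pair the samples, as same-numbered libraries correlated at -0.07 to 0.20 after removing group means. With the replicate number as a block none of the 7 genes (0) passed in the DSS comparison under that label (edgeR adjusted p = 0.0562 for Scp2 and 0.0791 for Slc27a5). All genes passing then numbered 33 for genotype in untreated mice (11 without the block) and 128 for the interaction (72 without). For DSS in wild type, DSS under that label and genotype with DSS they numbered 119, 1164 and 66 (121, 1240 and 59 without). The cause was not tested.

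Leaving out single libraries gave 0 to 2 of the 7 genes in the DSS comparison of the mice labelled RelaΔhepStat3Δhep. All genes passing ran from 241 to 1736 there, 35 to 209 for DSS in wild type, 2 to 34 for genotype in untreated mice, 11 to 392 for genotype with DSS and 21 to 220 for the interaction. Log2 values near 0 changed sign between such fits. For DSS in wild type these were Acox2 (-0.0288 to 0.37), Hsd17b4 (-0.18 to 0.15), Scp2 (-0.17 to 0.39) and Slc27a5 (-0.23 to 0.0353). For genotype with DSS they were Akr1c6 (-0.15 to 0.83), Amacr (-0.20 to 0.0775) and Hsd17b4 (-0.20 to 0.14). Acox2 ran from -0.29 to 0.11 for genotype in untreated mice and from -0.27 to 0.13 for the interaction.

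DESeq2 called 859 genes for DSS in wild type, 2315 in the mice labelled RelaΔhepStat3Δhep, 334 and 583 for genotype without and with DSS and 698 for the interaction, with 1 of the 7 genes each for DSS in wild type (Akr1d1), genotype with DSS (Scp2) and the interaction (Scp2). The covariate for high Xist left 50, 4, 2, 5 and 4 genes in the same order and 0 of the 7. It turned the sign of Acox2 (-0.0269) and Scp2 (-0.11) for DSS in wild type, of Amacr (0.15), Acox2 (0.46) and Hsd17b4 (0.0632) for genotype with DSS, and of Akr1d1 (-0.20) and Acox2 (0.74) for the interaction. With only the groups compared, 21 genes passed for DSS in wild type and 60 for genotype in untreated mice. Without the third untreated and second DSS wild-type libraries, a choice made after seeing the data, 18 genes passed for genotype in untreated mice, and the sign turned for Acox2 (-0.0288) and Hsd17b4 (0.13) with DSS in wild type, Akr1c6 (-0.16) for genotype with DSS and Acox2 (0.11) for the interaction.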
